A study of Mus musculus with 48 samples.

Results

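The 8 genes Tcf4, Spib, Siglech, Ccr9, Cd300c, Pacsin1, Cox6a2 and Dntt were followed through every sorted population of the study as genes that mark plasmacytoid dendritic cells. They were picked as a named list with earlier results of these data known, with no threshold on a measured value, and are 8 of the 55487 genes listed in each of 2 count tables. Mouse lymph node myeloid cells were sorted as migratory dendritic cells (mDC) and resident dendritic cells (rDC), which share 1 table, and as macrophages of the medullary (MSM) and subcapsular (SSM) sinus, which share the other. Each population came from a lymph node (LN) or a tumor-draining lymph node (TDLN) of tumor-bearing mice given cisplatin, a DNA-crosslinking chemotherapy drug, or phosphate-buffered saline (PBS). The 4 populations under 4 conditions gave 16 groups of 3 libraries, 48 in all, every one from wild type mice. The labels do not name the tumor, the site that the LN drained, the dose, the ages or the sort gates, and they leave unsaid how many animals a group of 3 libraries stands for, so that p-values measure the spread between these libraries, which may be technical.

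Plasmacytoid dendritic cells are round, lymphoid-looking cells of blood, marrow and lymphoid organs, known for secreting type I interferon when viral nucleic acids reach the receptors TLR7 and TLR9 in their endosomes. Their identity depends on the E protein TCF4 (also called E2-2), which is held in check by the inhibitor ID2 in conventional dendritic cells, and they share a part of their program with B lymphocytes. None of the 8 genes belongs to these cells alone: Spib and Tcf4 are also transcribed in B cells, Dntt in lymphoid progenitors, and Siglec-H also occurs on some macrophages of the splenic marginal zone and of the lymph node medulla. In bulk samples such as these, fewer cells of a type and less RNA per cell cannot be told apart.

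Library totals were 6456456 to 10434248 counts in the 24 macrophage libraries and 2002713 to 3842097 in 18 dendritic cell libraries. The other 6 dendritic cell libraries, which are the mDC TDLN PBS group and the rDC LN PBS group, held 10733509 to 15481059. Levels are given below in counts-per-million (CPM), scaled within the 12 libraries of 1 population, so that levels set across populations rest on separate scalings. Among the macrophages, 4 libraries resembled the other population of their own node and treatment: replicate 2 of MSM and of SSM from the LN with PBS, replicate 1 of MSM and replicate 3 of SSM from the TDLN with cisplatin. Over 7818 genes, none of them correlated above r = 0.7523 with a library of its own label, and each correlated at 0.9906 or more with a library of the other label. They are called the crossed libraries here, their labels were kept, and the macrophage comparisons of the 8 genes are given with and without them. Marker counts and sums among macrophages are given without them. The sinus macrophage markers also departed from the labels in uncrossed groups. In the 3 MSM LN cisplatin libraries Siglec1 (0 to 0.2923 CPM), Cd5l, Mertk and Marco (0.6238 to 1.9 CPM) were at or near 0. In SSM TDLN PBS 9 of 10 sinus macrophage markers were lower than in SSM LN PBS without the crossed libraries. Marco and the summed markers were lowest there among the uncrossed SSM groups, with values given below.

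The promoters of the members are shown because the E protein TCF4 binds E-boxes, written CANNTG. Whether TCF4 has a part in the levels of the other members was not tested. Promoters of 6 of the 8 genes were searched, since no entry was found for Cox6a2 and Tcf4 was left out. Of these 4 are printed, each as the 250 bases before the RefSeq transcript start (GRCm38.p6), 5′ to 3′ on the gene's strand. Capitals mark every CANNTG, which reads the same on both strands. They lie at chr7:55767934-55768183 on the + strand for Siglech, chr9:123766961-123767210 on the + strand for Ccr9, chr11:114960508-114960757 on the − strand for Cd300c and chr19:41029025-41029274 on the + strand for Dntt.
Siglech: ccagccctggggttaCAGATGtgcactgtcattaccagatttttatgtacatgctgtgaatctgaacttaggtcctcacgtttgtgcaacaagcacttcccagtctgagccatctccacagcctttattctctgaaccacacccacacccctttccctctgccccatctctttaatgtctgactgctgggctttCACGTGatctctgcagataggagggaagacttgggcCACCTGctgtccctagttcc
Ccr9: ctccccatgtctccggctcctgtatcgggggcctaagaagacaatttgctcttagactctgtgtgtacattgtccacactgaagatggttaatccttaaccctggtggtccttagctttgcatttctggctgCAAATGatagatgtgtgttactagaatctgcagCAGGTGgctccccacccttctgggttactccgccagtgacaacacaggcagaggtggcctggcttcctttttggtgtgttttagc
Cd300c: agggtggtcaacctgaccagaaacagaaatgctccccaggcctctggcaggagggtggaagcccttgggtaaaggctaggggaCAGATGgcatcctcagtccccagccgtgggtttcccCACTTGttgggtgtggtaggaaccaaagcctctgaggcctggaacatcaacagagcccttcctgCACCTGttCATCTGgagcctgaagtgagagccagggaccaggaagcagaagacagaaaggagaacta
Dntt: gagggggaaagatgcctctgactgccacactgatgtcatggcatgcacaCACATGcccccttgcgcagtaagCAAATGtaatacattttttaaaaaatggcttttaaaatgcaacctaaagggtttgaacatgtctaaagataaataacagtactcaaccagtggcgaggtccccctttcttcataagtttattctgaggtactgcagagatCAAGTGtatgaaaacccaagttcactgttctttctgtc

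Within these 250 bases Cd300c held 4 E-boxes, Siglech 3, Dntt 3, Ccr9 2, Spib 2 and Pacsin1 0. Of 27025 promoters of the same length, 66.0% held at least 1, with a mean of 1.15, so that a match is common. GAGGAAGT, a site of the ETS class that SPIB belongs to, was found on neither strand in any of the 6, and occurred in 2.44% of all promoters. It can overlap an E-box at its ends only. A match describes letters in a window and is not a measured site.

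Resident dendritic cells carried all 8 transcripts, and migratory dendritic cells carried 3 of them at no more than 1.725 CPM in any library. Per length, in the deposited transcripts-per-million values (TPM), Siglech led in the resident cells with group means of 753.2 to 1510. Tcf4 followed at 300.0 to 522.1 TPM. Ccr9 (149.3 to 296.9 TPM), Cox6a2 (110.6 to 232.3), Spib (152.5 to 221.2), Cd300c (104.3 to 215.3) and Pacsin1 (92.76 to 193.1) overlapped one another in their ranges. With PBS, Spib (173.8 TPM) was above Ccr9 (156.7) in the LN and below it in the TDLN (221.2 against 296.0). Dntt was lowest at 32.93 to 60.71 TPM. Summed over the 12 libraries, mDC held 12 counts of Cd300c, 20 of Cox6a2 and 44 of Dntt, against 3627, 4474 and 3532 in rDC.

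**Figure D1:**
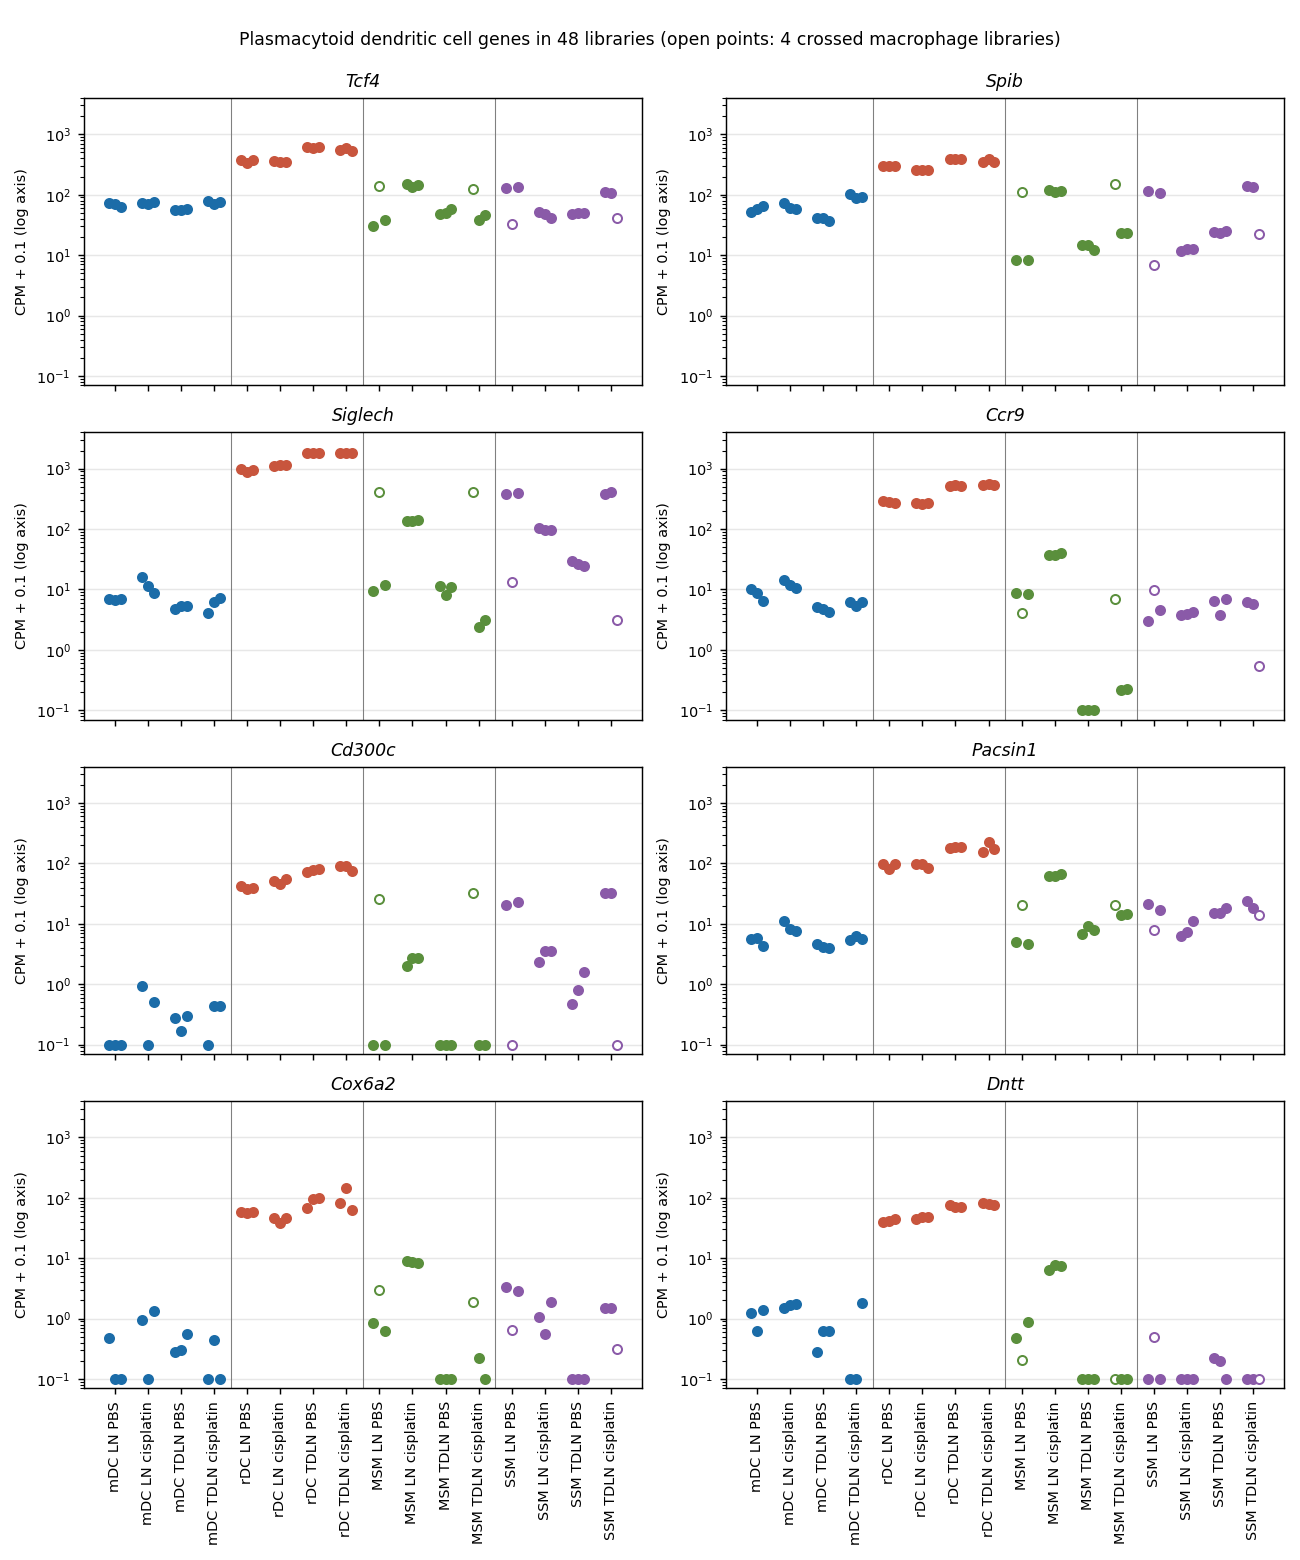
Level of each of the 8 genes in all 48 libraries (CPM + 0.1, log axis), 1 panel per gene and 1 point per library, in 16 groups ordered by population, node and treatment; vertical lines part the populations and open points are the 4 crossed macrophage libraries. All 12 rDC libraries lie above all 12 mDC libraries in every panel, and Siglech spans 2.281 to 414 CPM among macrophages.

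In a model of all 24 dendritic cell libraries, 8 of 8 members were lower in mDC than in rDC at an adjusted p under 0.05 (edgeR quasi-likelihood test with Benjamini-Hochberg adjustment), where 38.9% of the 14548 genes tested were lower. The median log2 fold change of the members was -5.63, against -0.058 over all genes. Siglech, the sialic acid-binding receptor that is the classic surface marker of mouse plasmacytoid cells, averaged 7.444 ± 3.35 CPM (SD, n = 12) in mDC and 1426 ± 416 in rDC, a 156-fold difference in the model, which averages the 4 conditions on the log scale. Ccr9, a chemokine receptor for gut and thymus homing, was 42.3-fold lower in mDC and Pacsin1, an adaptor of membrane trafficking, 18.5-fold. The transcription factors differed least: Tcf4 was 5.46-fold lower (68.3 ± 8.31 against 471.7 ± 122 CPM) and Spib 4.27-fold lower (63.91 ± 21.2 against 326 ± 55.9 CPM). Groups did not overlap for any member.

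The surrounding pathway separated the 2 populations in the same table. All 14 of 14 other genes enriched in plasmacytoid cells were lower in mDC. Of 5 further regulators of the lineage, Bcl11a (log2 fold change -3.11), Irf8 (-1.57) and Runx2 (-2.38) were lower and Cbfa2t3 was higher (1.01). Of 7 genes of endosomal nucleic acid sensing 6 were lower, among them Tlr7, the single-stranded RNA receptor (-4.71), and Irf7, the interferon regulator (-3.68). Id2, the E protein inhibitor, was higher in mDC by 3.74 on the log2 scale, at 1262 against 119.9 CPM. None of 13 type I and III interferon genes reached the count filter in the rDC model, and their summed level was 0.28 to 5.6 CPM in rDC libraries. Markers of migratory dendritic cells such as Ccr7 and Fscn1 summed to 25730 to 32670 CPM in mDC and 934.8 to 1551 in rDC.

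Within the resident dendritic cells, every member was higher in the tumor-draining node, whichever the treatment. With PBS, 8 of 8 were called higher where 14.9% of 14023 genes were, with a median log2 fold change of 0.853 against 0.0066 over all genes. With cisplatin, 8 of 8 were called higher where 7.83% of genes were, with medians of 0.748 and -0.0051. The column names of the dendritic cell table say Tumor and WT, read as TDLN and LN by elimination against the sample labels. The PBS comparison set deep LN libraries against shallower TDLN libraries, the cisplatin comparison was made at 1 depth, and thinning the deep libraries to a depth like that of the others kept 8 of 8. The 2 comparisons share no library.

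Tcf4, the master regulator, read 373.3, 341.1 and 379.1 CPM in the 3 LN PBS libraries and 614.3, 604.1 and 607.7 in the TDLN PBS libraries. With cisplatin it read 366.4, 343 and 342.7 CPM in the LN and 551.6, 600.7 and 536 in the TDLN. The TDLN libraries stood above every LN library, by 1.67-fold with PBS (log2 0.74 ± 0.0729 SE, adjusted p = 2.2e-06) and 1.61-fold with cisplatin (0.68 ± 0.0743, adjusted p = 1.48e-05), both from edgeR's quasi-likelihood test. Spib, an ETS factor needed for plasmacytoid development and function, read 296, 299.9 and 303.1 CPM in LN PBS and 395.4, 387 and 394 in TDLN PBS. It read 256.6, 256 and 253.5 CPM in LN cisplatin and 341.8, 386.3 and 342.3 in TDLN cisplatin. Its node difference was the smallest of the 8 with each treatment, 1.31-fold with PBS (adjusted p = 0.000699) and 1.4-fold with cisplatin (adjusted p = 0.00022). The PBS call for Spib was lost when no count filter was applied (log2 0.13, adjusted p = 0.5), a setting that moved the median of all genes.

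Siglech read 986.7, 871.1 and 946.2 CPM in LN PBS and 1786, 1794 and 1834 in TDLN PBS. In LN cisplatin it read 1118, 1150 and 1142 CPM, and in TDLN cisplatin 1851, 1803 and 1832. The 6 TDLN libraries lay within 1786 to 1834 and 1803 to 1851 CPM, overlapping between treatments, and the 3 LN cisplatin libraries lay above all 3 LN PBS libraries. The node difference was 1.93-fold with PBS (log2 0.95 ± 0.0684 SE, adjusted p = 7.07e-08) and 1.61-fold with cisplatin (0.69 ± 0.0684, adjusted p = 7.39e-06). The test of the difference between these, which is also the difference of the cisplatin effect between nodes, gave -0.26 on the log2 scale and adjusted p = 0.126 in edgeR, and adjusted p = 0.0221 in DESeq2.

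Ccr9 read 291.2, 277.7 and 273.2 CPM in LN PBS and 520.7, 528.8 and 518.9 in TDLN PBS. With cisplatin it read 268.8, 256 and 269.3 CPM in the LN and 539, 549.3 and 543.4 in the TDLN. The nodes were far apart with either treatment, by 1.86-fold with PBS (adjusted p = 9.11e-08) and 2.05-fold with cisplatin (adjusted p = 1.72e-07). Cd300c, an immunoglobulin-like receptor of the CD300 family, read 42.87, 38.18 and 39.22 CPM in LN PBS and 72.07, 78.68 and 81.29 in TDLN PBS. It read 51.25, 45.98 and 55.68 CPM in LN cisplatin and 91.65, 89.99 and 74.35 in TDLN cisplatin. Its node difference was 1.92-fold with PBS (adjusted p = 9.6e-06) and 1.67-fold with cisplatin (adjusted p = 0.000313).

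Pacsin1 read 99.02, 80.14 and 99.74 CPM in LN PBS and 183, 185.3 and 189.8 in TDLN PBS. It read 97.93, 99.56 and 84.77 CPM in LN cisplatin and 156.5, 226.1 and 171.7 in TDLN cisplatin. Its node difference was 2.0-fold with PBS (adjusted p = 1.66e-05) and 1.97-fold with cisplatin (adjusted p = 6.9e-05), with replicate 2 of TDLN cisplatin above the other two. Dntt, the template-independent DNA polymerase of lymphoid progenitors, read 39.36, 41.11 and 43.91 CPM in LN PBS and 75.79, 71.49 and 70.47 in TDLN PBS. It read 44.85, 47.63 and 48.2 CPM in LN cisplatin and 83.05, 78.3 and 76.04 in TDLN cisplatin. The node difference of Dntt was 1.75-fold with PBS (adjusted p = 9.63e-06) and 1.69-fold with cisplatin (adjusted p = 7.51e-05), with no overlap.

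Cox6a2, a subunit of cytochrome c oxidase best known from striated muscle, was the least even member. It read 59.25, 55.76 and 57.64 CPM in LN PBS and 69.14, 96.46 and 101 in TDLN PBS. It read 46.07, 38.04 and 46.81 CPM in LN cisplatin and 82.39, 147.8 and 63.2 in TDLN cisplatin. The groups did not overlap, and the node difference was 1.53-fold with PBS (log2 0.62 ± 0.212 SE, adjusted p = 0.0393) and 2.25-fold with cisplatin (1.17 ± 0.232, adjusted p = 0.00242). The PBS call was lost when any 1 of LN PBS 1, 2 or 3 or TDLN PBS 2 or 3 was left out, with adjusted p of 0.0752 to 0.166. The library TDLN cisplatin 2, which was highest for Cox6a2 and Pacsin1, was also highest of its group for Irf7 (705.6 against 509.3 to 510.2 CPM) and Bst2 (519.5 against 308.6 to 308.7 CPM), and its part in these values was not tested.

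**Figure D2:**
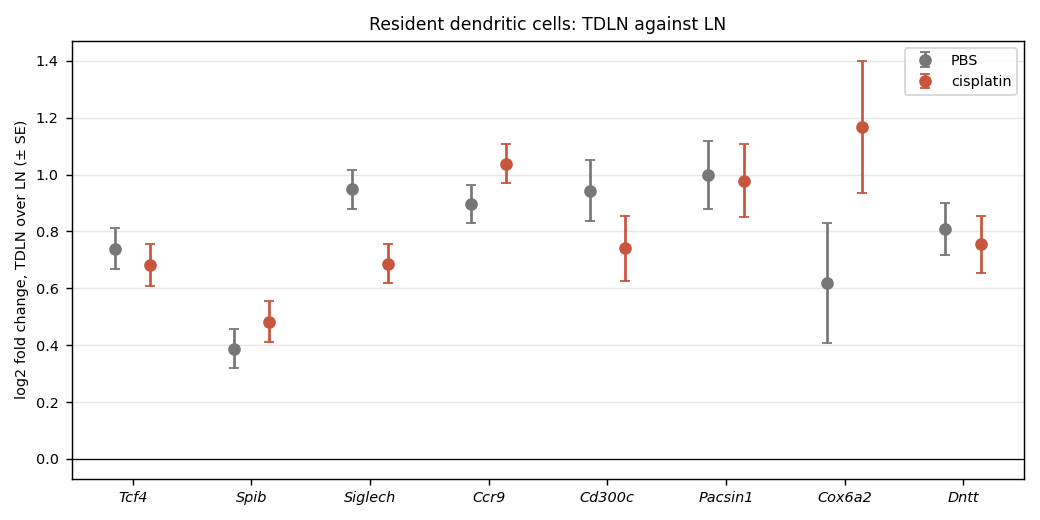
Log2 fold change of each gene in resident dendritic cells, TDLN over LN, with PBS (grey) and with cisplatin (red); points are edgeR estimates from 3 against 3 libraries and bars are ± 1 SE. All 16 points lie above 0, from 0.39 for Spib with PBS to 1.17 for Cox6a2 with cisplatin, whose bars are the widest.

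Other genes of the program moved with the members between the nodes. Of 14 further plasmacytoid-enriched genes, 12 were higher in the TDLN with PBS and 10 with cisplatin, none lower. Klk1, a kallikrein protease, read 101.6 to 126.3 CPM in LN PBS and 283.7 to 301.6 in TDLN PBS. Havcr1, an immunoglobulin-like receptor, read 27.78 to 30.89 and 64.68 to 66.48 CPM. Among the 5 regulators, 4 were higher in the TDLN with each treatment: Irf8 by 0.67 and 0.80 on the log2 scale, Runx2 by 0.82 and 0.66, and Zeb2 by 0.31 and 0.55. Of 7 sensing genes 4 were higher with each treatment, Irf7, Myd88 and Unc93b1 among them. Id2 was lower in the TDLN with PBS (log2 -0.99), from 167.7 to 182.5 CPM in the LN to 76.03 to 97.59, and no gene of the list of E proteins and their inhibitors was called between nodes with cisplatin.

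Markers of other cell types moved with the node as well. All 8 B cell markers were lower in the TDLN with either treatment, with sums of 3374 to 3882 CPM in the 6 LN libraries and 1852 to 2133 in the 6 TDLN libraries, opposite in direction to the members. All 8 T cell markers were higher in the TDLN with PBS and lower with cisplatin, with sums of 65.11 to 96.24 (LN PBS), 360.6 to 393.8 (TDLN PBS), 292 to 330.7 (LN cisplatin) and 119 to 170.6 CPM (TDLN cisplatin). Conventional dendritic cell markers were split with PBS, 2 higher and 4 lower of 8 (sums 1758 to 1795 in the LN, 1625 to 1673 in the TDLN), and 5 of 8 were higher with cisplatin (1245 to 1330 and 1643 to 1784). Lymphoid progenitor markers, which bear on Dntt, had 1 of 3 tested genes higher with PBS and 1 lower with cisplatin. The plasma cell list had a higher sum in the TDLN with both treatments (437.7 to 484.5 CPM in the 6 LN libraries, 568.7 to 639.8 in the 6 TDLN libraries), nearly all of it Xbp1, a secretory pathway factor that rose by 0.33 and 0.50 on the log2 scale, while Sdc1 was not called and Tnfrsf17 was below the filter. The part of these markers in the node difference was not tested.

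In resident dendritic cells, members were called with cisplatin in the LN only, and each call was lost in some alternative. In the LN, 2 of 8 were called higher where 10.7% of genes were, and 1 lower where 7.17% were, with median log2 changes of -0.0213 for the members and 0.0089 for all genes. Siglech was higher by 0.28 ± 0.068 SE (adjusted p = 0.00874) and Cd300c by 0.35 ± 0.111 (adjusted p = 0.0382), while Spib fell by 0.23 ± 0.0702 (adjusted p = 0.0302). Each of these calls was lost when some single library was left out: Siglech without LN cisplatin 2 or LN PBS 2 (adjusted p = 0.0542 and 0.0622), Spib without LN PBS 1 or 3, and Cd300c without any 1 of the 6. The LN PBS libraries were deep and the LN cisplatin libraries shallower, so treatment and depth went together. In edgeR, Cd300c lost its call when deep libraries were thinned (adjusted p = 0.131). With the replicate block Cd300c and Spib lost theirs (adjusted p = 0.0664 and 0.0598). Ccr9 (log2 -0.08, adjusted p = 0.428), Tcf4 (-0.06), Cox6a2 (-0.40), Dntt (0.18) and Pacsin1 (0.01) were not called. With no count filter, a setting that moved the median of all genes, Siglech and Cd300c (log2 0.05, adjusted p = 0.839) lost their calls, and Ccr9 (-0.38, adjusted p = 0.00519), Tcf4 (-0.36, adjusted p = 0.00923) and Cox6a2 (-0.69, adjusted p = 1.28e-05) were called lower.

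In the TDLN 0 of 8 members were called with cisplatin by edgeR or by DESeq2. In edgeR 1.01% of genes were called, and the unadjusted p was under 0.05 for 1324 genes. The estimates ran from -0.14 ± 0.0707 (SE) for Spib to 0.16 ± 0.219 for Cox6a2 on the log2 scale. The cisplatin effects of the 2 nodes were not called different for any member in edgeR, where 5.31% of genes were, though with no count filter Cox6a2 was (log2 0.81, adjusted p = 0.00127). Beside the LN values, all 8 T cell markers and 5 of 5 NK cell markers were higher with cisplatin and 7 of 8 conventional dendritic cell markers lower, with sums as given above and NK cell sums of 6.332 to 11.49 CPM with PBS and 83.03 to 89.38 with cisplatin. The part of these markers in the LN values was not tested. Among listed genes, Tlr9, the receptor for unmethylated DNA, was higher (log2 1.25), Cbfa2t3 lower (-0.73) and Id2 lower (-0.67).

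In migratory dendritic cells 5 members passed the count filter, and the 2 transcription factors were those called higher with cisplatin in the TDLN. Spib read 40.93, 41.25 and 37.08 CPM in TDLN PBS and 103.6, 86.85 and 92.1 in TDLN cisplatin, while the LN libraries read 51.56, 58.79 and 64.66 with PBS and 71.55, 59.73 and 58.86 with cisplatin. Cisplatin in the TDLN raised it by 1.25 ± 0.091 SE on the log2 scale (adjusted p = 8.31e-10, edgeR quasi-likelihood test), without overlap. This comparison set shallower cisplatin libraries against the deep TDLN PBS libraries, and thinning the deep libraries kept the Spib call. In the LN the treatments overlapped, and the difference of the cisplatin effect between nodes was 1.11 ± 0.146 (adjusted p = 1.28e-05), where 8.43% of genes were called higher. Tcf4 read 55.64, 55.93 and 58.31 CPM in TDLN PBS and 79.97, 70.71 and 76.58 in TDLN cisplatin, a log2 change of 0.42 ± 0.077 (adjusted p = 0.000296), and this call was lost with no count filter (0.14, adjusted p = 0.302). Its effect was not called different between nodes (log2 0.35, adjusted p = 0.0535), though it was with DESeq2 size factors (adjusted p = 0.0472) and without LN PBS 3 or TDLN cisplatin 2 (adjusted p = 0.0402 and 0.0474), with LN values of 73.26, 69.62 and 62.52 CPM with PBS and 72.11, 68.77 and 76.15 with cisplatin.

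These were 2 of the 5 members tested in the TDLN, where 14.1% of 12519 genes were higher, with medians of 0.419 and -0.015. Beside them, 7 of 8 B cell markers rose with cisplatin in each node, with sums of 252.5 to 265.8 CPM with PBS and 378.8 to 404.4 with cisplatin in the TDLN, and 144.6 to 167.1 and 297.6 to 328.1 in the LN. B cells transcribe both Spib and Tcf4; the part of these markers in the TDLN change was not tested. Among listed regulators, sensing genes and E protein inhibitors, Irf8 (log2 0.51), Irf7 (1.58), Unc93b1 (0.38) and Tlr9 (1.92) were also higher in TDLN mDC with cisplatin, and Id2 was lower (-0.33). The remaining genes of these lists are not reported for this comparison, so no direction of a whole list is given.

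Siglech, Ccr9 and Pacsin1 were low in mDC. With cisplatin in the TDLN their estimates were also above 0 (log2 0.19, 0.33 and 0.46) but were not called. The TDLN groups of Ccr9 (4.22 to 5.05 CPM with PBS, 5.149 to 6.209 with cisplatin) and Pacsin1 (3.831 to 4.518 and 5.399 to 6.179) did not overlap. Siglech read 6.978, 6.705 and 6.852 CPM in LN PBS, 16.15, 11.3 and 8.644 in LN cisplatin, 4.695, 5.206 and 5.324 in TDLN PBS and 4.049, 6.179 and 7.244 in TDLN cisplatin. Cisplatin in the LN gave a log2 change of 0.84 ± 0.274 SE (adjusted p = 0.0497), 1 call among 5 members where 6.15% of genes were higher, with medians of 0.539 and -0.0093. That call was lost in 10 of 11 alternatives, with adjusted p of 0.0514 to 0.301, and the cisplatin libraries of the LN ranged widely. Ccr9 (0.54, adjusted p = 0.173) and Pacsin1 (0.82, adjusted p = 0.07) were not called, though their LN groups did not overlap. Klk1, picked from the other plasmacytoid-enriched genes after its values were seen, read 1.713 to 3.094 CPM in LN PBS and 8.63 to 11.62 in LN cisplatin. The other genes of its list are not reported for this comparison.

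**Figure D3:**
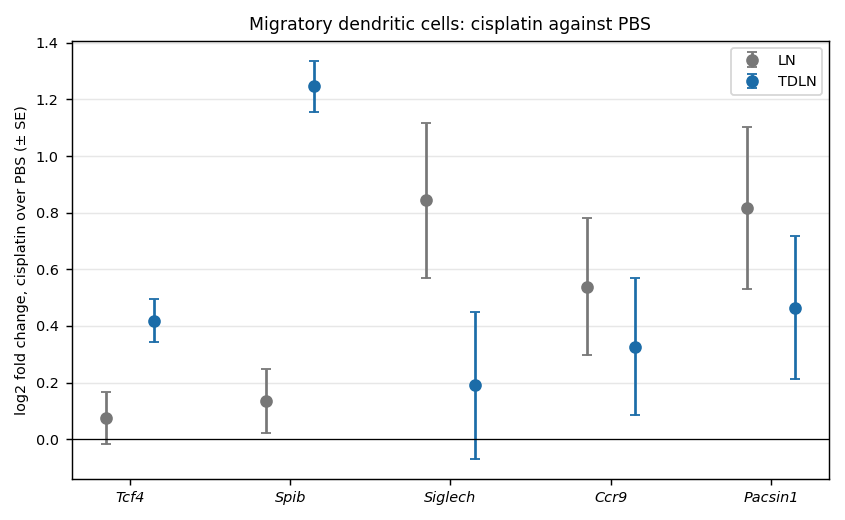
Log2 fold change in migratory dendritic cells, cisplatin over PBS, in the LN (grey) and the TDLN (blue) for the 5 genes that passed the count filter; points are edgeR estimates from 3 against 3 libraries and bars are ± 1 SE. Spib in the TDLN (1.25) stands far above its LN value (0.14), and the bars of the low genes Siglech, Ccr9 and Pacsin1 are wide.

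Between the nodes, mDC with PBS had members lower in the TDLN and none higher. In that comparison 3 of 5 were lower in the TDLN where 14.3% of genes were, with medians of -0.427 and 0.0088: Spib (log2 -0.55, adjusted p = 0.000383), Tcf4 (-0.27, adjusted p = 0.0154) and Ccr9 (-0.87, adjusted p = 0.00832). The Ccr9 call was lost when deep libraries were thinned (adjusted p = 0.115) and without LN PBS 1 (adjusted p = 0.104). The Tcf4 call was lost without LN PBS 1, TDLN PBS 1 or TDLN PBS 2 (adjusted p = 0.143, 0.0515 and 0.0615). With no count filter none of the 3 was called, at adjusted p of 0.16 to 0.599, and Tcf4 was at 0.08. With cisplatin, Siglech (-1.08, adjusted p = 0.00686) and Ccr9 (-1.08, adjusted p = 0.00355) were lower where 7.21% of genes were, and Spib was higher (0.56, adjusted p = 0.000336) where 7.57% were, with medians of -0.66 and 0.0016. Ccr9 read 14.48, 11.62 and 10.29 CPM in LN cisplatin and 6.073, 5.149 and 6.209 in TDLN cisplatin, and the Siglech call was lost without LN cisplatin 1. The difference between mDC and rDC in these node effects was not tested.

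Among macrophages Siglech ranged from 2.281 to 414 CPM, and its highest groups were not those highest for Ccr9. Among uncrossed libraries, SSM TDLN cisplatin (396.9 ± 14.5 CPM, SD, n = 2) and SSM LN PBS (387 ± 4.1, n = 2) overlapped at the top. MSM LN cisplatin (136.8 ± 2.96, n = 3), SSM LN cisplatin (99.42 ± 5.8, n = 3) and SSM TDLN PBS (26.71 ± 2.51, n = 3) followed, each apart from the next. MSM LN PBS (10.51 ± 1.55, n = 2) and MSM TDLN PBS (10.09 ± 1.84, n = 3) overlapped, and MSM TDLN cisplatin was lowest (2.668 ± 0.547, n = 2). With the crossed libraries, SSM TDLN cisplatin (265.6 CPM), SSM LN PBS (262.4), MSM LN PBS (143.7) and MSM TDLN cisplatin (139.8) had SDs of 216 to 237 over 3 libraries and overlapped. Among uncrossed libraries Ccr9 took another order, with MSM LN cisplatin highest (38.1 ± 1.47 CPM), MSM LN PBS next (8.509 ± 0.41), all 4 SSM groups between 3.713 ± 1.06 and 5.911 ± 0.425 overlapping their neighbours, and MSM TDLN PBS at 0 counts in 3 of 3 libraries. With the crossed libraries MSM LN cisplatin was still highest and apart, and MSM LN PBS (6.977 ± 2.67, n = 3) overlapped SSM LN PBS.

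In MSM of the LN, the cisplatin libraries carried all 8 members. Siglech read 134.2, 136.1 and 140 CPM there, against 9.418 and 11.61 in MSM LN PBS 1 and 3 and 410.1 in the crossed library MSM LN PBS 2. Ccr9 read 37.27, 37.23 and 39.8 CPM against 8.799 and 8.219, with 3.914 in the crossed library. Dntt read 6.284, 7.721 and 7.236 CPM, from 43, 62 and 58 counts, against 0.3718 and 0.7828 from 3 and 6 counts, with 1 count in the crossed library. For Ccr9 and Dntt the cisplatin libraries thus stood above all 3 PBS libraries, and for Siglech above only the 2 uncrossed ones.

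The other members had the same outline. Pacsin1 read 62.99, 61.77 and 66.25 CPM with cisplatin, 4.833 and 4.566 with PBS and 20.77 in the crossed library, and Cox6a2 read 9.061, 8.593 and 8.234, 0.7435 and 0.5218, and 2.935 CPM. Tcf4 read 147.6, 133.6 and 144.1 CPM with cisplatin, 30.36 and 37.31 with PBS and 138.7 in the crossed library. Spib read 119.1, 110.5 and 115.7 CPM with cisplatin, 8.303 and 8.349 with PBS and 110.5 in the crossed library. Cd300c read 1.9, 2.615 and 2.62 CPM with cisplatin, 0 in both uncrossed PBS libraries and 25.77 in the crossed one.

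With all libraries, 2 of 8 members were called higher with cisplatin, where 16.6% of 17002 genes were: Pacsin1 (log2 2.65, adjusted p = 0.00236) and Dntt (4.05, adjusted p = 0.00555), with medians of 1.94 for the members and -0.15 for all genes. Without the crossed libraries 8 of 8 were called higher, where 33.4% of 18374 genes were, with medians of 3.65 (Cd300c at its bound) and -0.079. Siglech was then 13.1-fold higher (log2 3.71 ± 0.126 SE, adjusted p = 7.45e-15), Spib 13.9-fold, Pacsin1 13.6-fold, Cox6a2 13.3-fold, Dntt 12.1-fold, Ccr9 4.49-fold and Tcf4 4.21-fold. Cd300c was at least 6.23-fold higher, counting 3 counts per library for the PBS libraries at 0.

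Markers of several other cell types moved with these groups, so the 8 genes did not stand alone. All 8 B cell markers were higher in MSM LN cisplatin, with sums of 4532 to 4642 CPM against 236.1 to 239.5 in the uncrossed PBS libraries. All 6 migratory dendritic cell markers were higher (4453 to 4699 against 497.1 to 517.7 CPM), and 5 of 5 NK cell markers (247.5 to 272.9 against 37.45 to 38.79 CPM). Of 10 sinus macrophage markers 9 were lower (241.8 to 263.5 against 2097 to 2128 CPM), and all 5 neutrophil markers were lower, with Camp, Cd177 and Ltf at 0 in all 3 cisplatin libraries. The part of each in the values of the 8 genes was not tested.

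Other genes of the program were divided. Of 14 plasmacytoid-enriched genes 10 were higher and 3 lower in MSM LN cisplatin without the crossed libraries. Ly6d, also on B cells, was higher by 4.95 on the log2 scale, Blnk, a B cell adaptor, by 2.62 and Cyb561a3 by 1.78, while Havcr1 was lower and read 0 to 0.1245 CPM. Klk1 read 15.2, 14.82 and 14.97 CPM against 0.1239 and 0.2609. Bst2, the tetherin antigen recognised by plasmacytoid cell antibodies, was not called (log2 0.03, adjusted p = 0.786). Of the regulators Irf8 (1.87) and Bcl11a (2.28) were higher, and Runx2 (-2.16), Zeb2 (-2.49) and Cbfa2t3 (-0.40) lower.

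Counts set per 100 Siglech counts of the same library compare the make-up of the signal, free of scaling. In the 12 rDC libraries there were 22.3 to 31.9 Ccr9 counts, 3.84 to 4.72 Dntt, 4 to 4.99 Cd300c and 7.42 to 12.5 Pacsin1 counts per 100. In MSM LN cisplatin Ccr9 was at 27.4 to 28.4, inside the rDC range, and Dntt at 4.68 to 5.67, overlapping its upper end. Cox6a2 (5.88 to 6.75 against 3.31 to 8.2) was inside its range. Cd300c was below that range at 1.42 to 1.92, and Pacsin1 (45.4 to 47.3), Spib (81.2 to 88.8 against 18.5 to 34.4) and Tcf4 (98.2 to 110 against 29.3 to 40.1) were above it. Such overlap was not confined to this group. In SSM TDLN PBS Ccr9 was at 14.1 to 27.2, with Dntt at 0 to 0.422. In uncrossed MSM LN PBS libraries, with few counts, Dntt was at 3.95 to 6.74 and Cox6a2 at 4.49 to 7.89. Ccr9 there was above the rDC range at 70.8 to 93.4, and Spib was at 71.9 to 88.2. In uncrossed SSM LN PBS libraries Ccr9 was at 0.771 to 1.15 and Dntt at 0, while Cd300c was at 5.42 to 5.83, Spib at 27.3 to 29.8 and Tcf4 at 33.9 to 34. In uncrossed SSM TDLN cisplatin libraries Ccr9 was at 1.38 to 1.61, Dntt at 0 and Cd300c at 7.88 to 8.39, so that the SSM groups with the most Siglech had little Ccr9 or Dntt for it. These ratios are a description and carry no test.

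**Figure D4:**
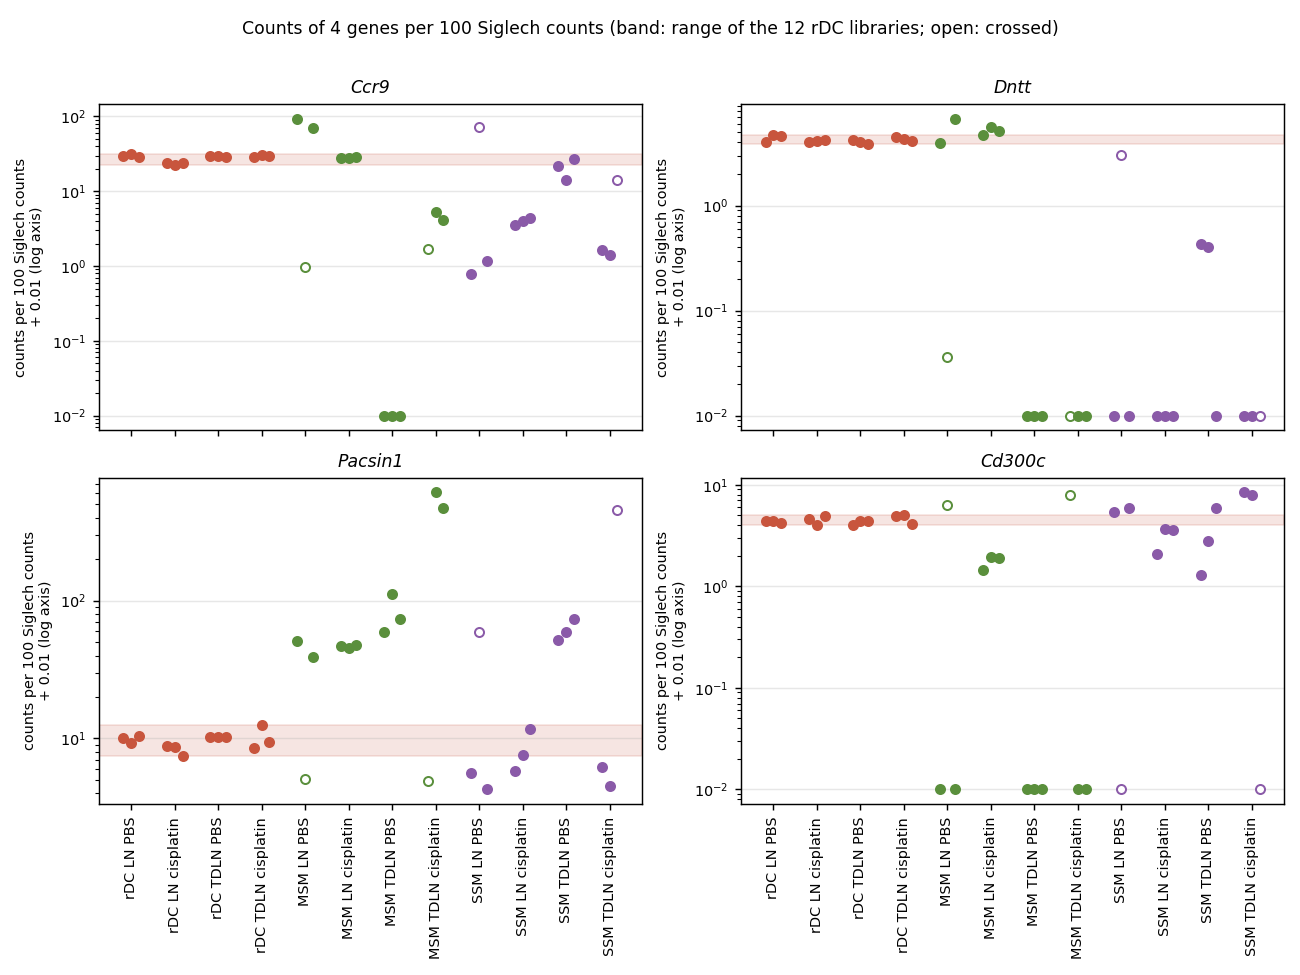
Counts of Ccr9, Dntt, Pacsin1 and Cd300c per 100 Siglech counts (+ 0.01, log axis) in rDC, MSM and SSM libraries, 1 point per library; the band is the range of the 12 rDC libraries and open points are crossed libraries. MSM LN cisplatin falls in the band for Ccr9 (27.4 to 28.4) and above it for Pacsin1 (45.4 to 47.3), while uncrossed SSM LN PBS libraries fall far below it for Ccr9 (0.771 to 1.15). SSM TDLN PBS overlaps the band for Ccr9 (14.1 to 27.2).

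In SSM the cisplatin differences ran in opposite directions in the 2 nodes once the crossed libraries were left out. In the LN, Siglech read 384.1 and 389.9 CPM with PBS (13.27 in the crossed library) and 106.1, 96.55 and 95.62 with cisplatin. In the TDLN it read 29.53, 25.86 and 24.73 CPM with PBS and 386.6 and 407.1 with cisplatin (3.07 in the crossed library). Spib had the same shape, with 114.4 and 106.3 CPM (6.633 crossed) against 11.69, 12.44 and 12.65 in the LN, and 23.8, 23.42 and 25.34 against 139.5 and 135.5 (22.37 crossed) in the TDLN. Cd300c read 20.81 and 22.74 CPM (0 crossed) against 2.212, 3.505 and 3.439 in the LN, and 0.3738, 0.7098 and 1.469 against 32.44 and 32.09 (0 crossed) in the TDLN.

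Ccr9 stayed between 2.96 and 6.734 CPM in every uncrossed SSM library, and Dntt was at 0 in 8 of these 10 and at 1 count in the other two, below the filter of the SSM model. With all libraries 0 of 7 members were called with cisplatin in the LN, where 13.3% of 16886 genes were called (4927 genes at an unadjusted p under 0.05), while DESeq2 called 1. In the TDLN 1 of 7 was called, where 13% of genes were higher: Cox6a2, at 0 counts with PBS, was at least 2.85-fold higher. The medians were -1.06 and -0.037 in the LN and, with Cox6a2 at its bound, 1.51 and 0.033 in the TDLN.

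Leaving the crossed libraries out, 6 of 7 members were lower with cisplatin in the LN, where 29.9% of 17632 genes were, with medians of -1.48 and 0. Spib was 8.85-fold lower, Cd300c 7.01-fold, Siglech 3.82-fold (log2 -1.94 ± 0.0663 SE, adjusted p = 2.41e-13), Cox6a2 2.79-fold, Tcf4 2.72-fold and Pacsin1 2.28-fold, and Ccr9 was not called (log2 0.11, adjusted p = 0.77). In the TDLN 5 of 7 were higher, where 34.6% were, with medians of 1.99 (Cox6a2 at its bound) and -0.018. Cd300c was 38.0-fold higher and Siglech rose by 3.91 ± 0.0748 on the log2 scale (adjusted p = 1.35e-16). Spib was 5.75-fold higher, Tcf4 2.22-fold and Cox6a2 at least 3.96-fold. Ccr9 (0.11, adjusted p = 0.72) and Pacsin1 (0.40, adjusted p = 0.0707) were not called. The test of the difference between the nodes called 6 of 7 members higher in the TDLN, where 33.6% of genes were, with Siglech at 5.85 on the log2 scale; with all libraries it called 2, Cox6a2 and Spib, where 13.4% were.

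In uncrossed SSM libraries the scavenger receptor Marco, picked after its values were seen, was high in the 2 groups with the most Siglech. It was lower in LN cisplatin and lowest in TDLN PBS, as Siglech was, whereas the B cell markers were lowest in LN cisplatin. The sinus macrophage markers as a list did not take that order, with a higher sum in LN cisplatin than in TDLN cisplatin. Of these 10 markers, 4 were higher and 6 lower in LN cisplatin than in LN PBS. Between nodes with cisplatin, 3 were higher and 4 lower in the TDLN. Marco read 1288 and 1341 CPM in the uncrossed SSM LN PBS libraries, 588.3 to 601.7 in SSM LN cisplatin, 17.94 to 20.32 in SSM TDLN PBS and 905.7 and 981.6 in the uncrossed SSM TDLN cisplatin libraries. B cell marker sums were 3281 to 3339, 186.8 to 193.9, 895.5 to 902.3 and 4237 to 4351 CPM in the same order, and sinus macrophage sums 5289 to 5500, 4981 to 5061, 1503 to 1676 and 4058 to 4198. The T cell sums ran the other way, at 509.1 to 552.3, 1449 to 1500, 2481 to 2677 and 375.4 to 379.6 CPM. MSM LN cisplatin differed from this pattern, with Siglech at 134.2 to 140 CPM and Marco at 0.6238 to 1.9. The part of these markers in the member values was not tested.

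**Figure D5:**
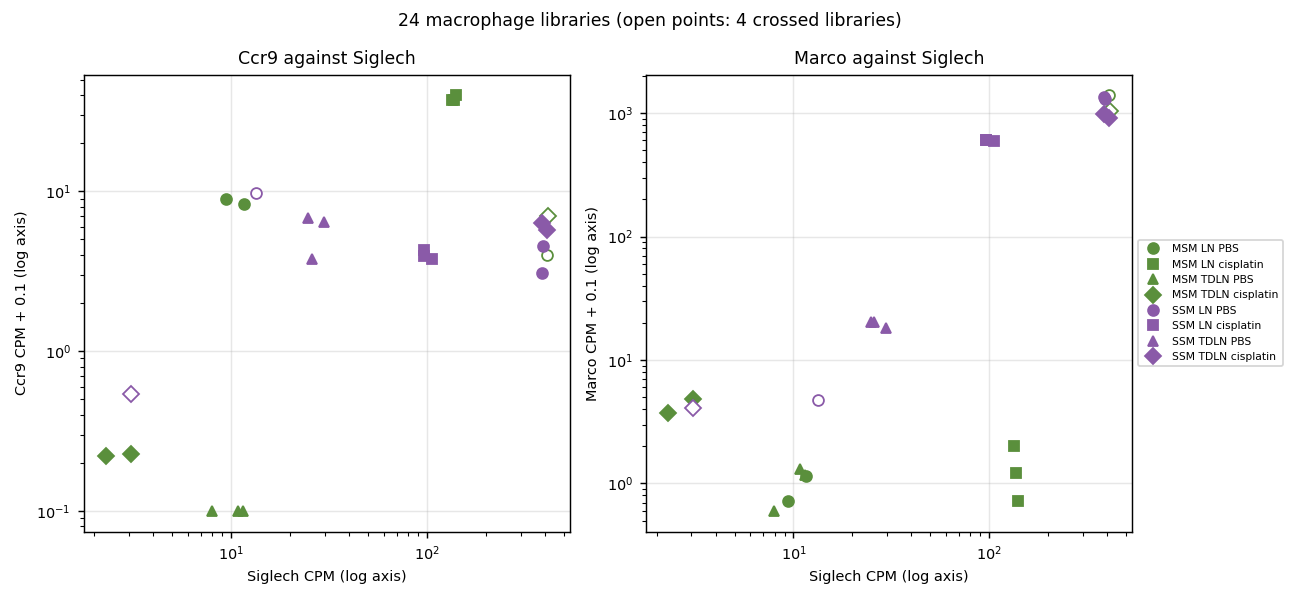
Ccr9 (left) and Marco (right) against Siglech in the 24 macrophage libraries (CPM, log axes, 0.1 added on the vertical axes); color is the labelled population, shape the node and treatment, and open points are crossed libraries. The 3 MSM LN cisplatin libraries lie highest for Ccr9 (37.23 to 39.8 CPM) and low for Marco (0.6238 to 1.9 CPM), while the libraries with 384.1 CPM or more of Siglech have 905.7 CPM or more of Marco.

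Uncrossed MSM libraries of the TDLN held little of the surface genes. Ccr9 was at 0 counts in 3 of 3 PBS libraries and at 0.1201 and 0.1273 CPM in the uncrossed cisplatin libraries, with 6.888 in the crossed one. Siglech read 11.47, 7.999 and 10.8 CPM with PBS and 2.281 and 3.055 with cisplatin, with 414 in the crossed library, and Dntt was at 0 in all 6. With all libraries 1 of 8 members was called higher with cisplatin in the TDLN, where 25.6% of genes were, namely Ccr9 (at least 6.27-fold), which was not called without the crossed library (adjusted p = 0.0797). Without the crossed libraries Spib (log2 0.75) and Pacsin1 (0.84) were higher, 2 of 8 where 41.6% of genes were, and Siglech (-1.92) and Tcf4 (-0.33) lower, 2 of 8 where 27.4% were. Beside them, 7 of 8 B cell markers were higher (sums of 370.9 to 380.6 CPM against 53.16 to 61.15), as were 5 of 6 migratory dendritic cell markers (1987 to 2056 against 612.1 to 669.6 CPM), and 7 of 10 sinus macrophage markers were lower (1054 to 1073 against 2154 to 2295 CPM); their part in the change was not tested. The medians, with members at 0 in both groups left out, were 0.794 without the crossed libraries and 2.24 with all, against 0.14 and 0.19 over all genes. The 0.794 includes Ccr9 (log2 3.13, from 2 counts against 0) and Cox6a2 (2.29, from 1 count against 0), which are no estimates of size.

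Between nodes in MSM, the cisplatin libraries differed most. With all libraries 4 of 8 members were lower in the TDLN, where 16.6% of genes were: Ccr9 (log2 -3.96), Cox6a2 (-3.66), Pacsin1 (-1.98) and Dntt (at least 20.3-fold). Without the crossed libraries 8 of 8 were lower, where 32.8% were, with medians of -3.47 (Cd300c and Dntt at their bounds) and 0.098. Siglech was 51.1-fold lower, Spib 4.95-fold, Pacsin1 4.49-fold, Tcf4 3.42-fold, Cd300c at least 6.41-fold and Dntt at least 19.1-fold. Ccr9 (37.23 to 39.8 CPM in the LN) and Cox6a2 (8.234 to 9.061 CPM) were also called lower, against 0 or 1 count of each in an uncrossed TDLN library. In the same comparison 8 of 8 B cell markers were lower in the TDLN (sums of 4532 to 4642 CPM in the LN, 370.9 to 380.6 in the TDLN), and 5 of 5 NK cell markers (247.5 to 272.9 and 34.58 to 42.38 CPM). Sinus macrophage markers were higher, 9 of 10 (241.8 to 263.5 and 1054 to 1073 CPM), and 5 of 5 neutrophil markers (13.88 to 16.72 and 5436 to 5563 CPM). The part of these markers in the node difference was not tested.

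With PBS, 3 of 8 were lower in the MSM of the TDLN with all libraries, where 26.6% of genes were: Ccr9 (at least 18.4-fold), Cox6a2 (at least 3.69-fold) and Dntt (at least 1.11-fold). These were lower without the crossed libraries also, by at least 22.4-fold, 1.67-fold and 1.52-fold, where 40.7% of genes were, and Tcf4 (0.63), Spib (0.74) and Pacsin1 (0.76) were then higher, where 29% were. Beside these, 7 of 8 B cell markers were lower (236.1 to 239.5 CPM in the LN, 53.16 to 61.15 in the TDLN) and 5 of 5 neutrophil markers higher (4403 to 4552 and 7633 to 7847 CPM), and their part was not tested. The difference of the cisplatin effect between nodes was called for 0 of 8 members in MSM with all libraries, where 40.7% of genes were called (8286 at an unadjusted p under 0.05). DESeq2 called 1 member. Without the crossed libraries 4 were called, all lower, where 22.1% of genes were. Cd300c and Dntt, at 0 counts in whole groups, had no usable estimate of this difference without the crossed libraries (SE 13600 and 5410). In SSM without the crossed libraries, the nodes differed for 5 of 7 members with each treatment, lower in the TDLN with PBS (33.8% of genes lower) and higher with cisplatin (30.1% higher); with all libraries 1 was lower with PBS (12%) and 2 higher with cisplatin (8.79%).

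Over the 4 conditions, MSM and SSM were not called different for any of the 8 members with all 24 libraries, where 30.2% of 19671 genes were called and 7680 had an unadjusted p under 0.05, while DESeq2 called 1. Without the crossed libraries 5 of 8 were lower in MSM, where 36.8% of genes were, with medians of -0.952 and -0.14. They were Siglech (log2 -3.39 ± 0.0557 SE, adjusted p = 7.1e-26), Spib (-1.01), Tcf4 (-0.46), Cd300c and Ccr9. Cox6a2 and Dntt, at 0 counts in whole groups, had no usable estimate there (SE 1480 and 6980) and could not be called. The median of -0.952 includes the Cox6a2 value of -0.89. For Ccr9 the arithmetic mean was higher in MSM (13.16 against 4.773 CPM), since the model averages logs over conditions and MSM TDLN held 0 or 1 count per uncrossed library. Without the crossed libraries 10 of 10 sinus macrophage markers (median log2 -3.40) and 8 of 8 B cell markers (-2.11) were also lower in MSM, and 8 of 8 T cell markers higher (1.27); their part in the member values was not tested.

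By a ranking of all genes with a mean of at least 4 CPM, the genes whose levels most resembled Siglech across the 12 rDC libraries included Cdh1 and Ctsl (Pearson r = 0.9911 each), Rilpl1 (0.9872), Fyn (0.982), Ctsb (0.9803), Ifnar2 (0.9791) and Man1c1 (0.9791), of 11637 genes. Among the members Dntt ranked 10 (r = 0.9786), Cd300c 20, Ccr9 67, Tcf4 110, Pacsin1 112, Spib 689 and Cox6a2 1127 (0.6988). Across the 24 macrophage libraries the nearest of 11609 genes were Unc93b1 (0.9842), Rtn1 (0.9676), Ciita (0.9671), Gdi2 (0.9669), Pik3ap1 (0.9657), Mmp11 (0.9652), Snx2 (0.9627) and Plekho1 (0.9592). Cd300c ranked 14 there (0.9507), Tcf4 236, Spib 568, Ccr9 1479 and Pacsin1 2224 (0.4949). Over the 20 uncrossed macrophage libraries those 8 nearest genes ranked 1 to 6, 8 and 9 of 11589 (r = 0.9522 to 0.9843), and Cd300c 14, Tcf4 312, Spib 601, Ccr9 1147 and Pacsin1 2103. The points share libraries and scaling and fall into groups by node or condition, and these correlations of log2 CPM are a description only.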

How the data were processed

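RNA of sorted lymph node cells was sequenced from libraries made with the TruSeq Stranded mRNA kit, per the labels' protocols. The submitters' processing notes name STAR (version not given in the sources used here), RSEM 1.3.0, DESeq2 1.38.3 and the build GRCm38. The authors deposited RSEM expected counts as whole numbers, TPM for the dendritic cells, and for the macrophages TPM with its decimals dropped, treated as a score and not used for levels. In the dendritic cell tables, columns named "Tumor" and "WT" were read as TDLN and LN by elimination. Each gene was matched by its symbol, and 99.4% of rows have one.

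Counts were tested with edgeR 4.0.16 in R 4.3.3 (filterByExpr, TMM scaling, quasi-likelihood test, Benjamini-Hochberg adjustment over all genes tested, limit 0.05), with 1 coefficient per group. Each population's 12 libraries had 1 model, and each table's 24 libraries had 1 model for the comparison of its 2 populations. CPM values used the TMM factors of the 12-library models. Macrophage libraries were called crossed where their mean correlation with the libraries of the other label of their own condition exceeded that with their own group, over genes with a mean of at least 4 on the log2 CPM scale. A fold against a group at 0 is a bound set by 3 counts per library. Likeness to Siglech used log2 CPM with a prior count of 2. Promoters come from a RefSeq table (GRCm38.p6).

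The members and the gene lists were chosen with earlier results of these data known. The text names the 8 members, up to 4 genes of each list with the smallest adjusted p per comparison, and genes among the 8 most like Siglech, some of which are not reported here; Havcr1, Klk1, Bst2, Marco, Siglec1 and a few other list genes were added after their values were seen. Replicates of a group differed by more than sampling noise (chi-square per degree of freedom 1.76 to 13.0, median 2.565, 40 pairs without a crossed library). Pairs with a crossed library, which the tests with all libraries include, were at 122 to 178. Alternatives were DESeq2 1.42.0, DESeq2 size factors, no count filter, the replicate number as a block, thinning deep libraries to a depth like that of the others, leaving out each library, and leaving out the crossed libraries. The code was tested on data simulated at the spread of all libraries, with changes set in the LN cisplatin group. Changes of 2-fold were recovered for 78.8% of genes in mDC, 87.6% in rDC, 1.01% in MSM and 2% in SSM. For 4-fold changes the shares were 99%, 99%, 39.6% and 41%. A macrophage member not called with all libraries may therefore still differ.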

Additional observations from a re-analysis of the deposited data

Results flagged for a closer look

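In migratory dendritic cells, the cisplatin effect on Spib differed between nodes in a test of that difference, by 1.111 on the log2 scale (TDLN minus LN, edgeR quasi-likelihood test, adjusted p = 1.28e-05). It was 1.25 in the TDLN and 0.14 in the LN, and it stayed called when any 1 library was left out. The TDLN PBS libraries were the deep mDC group, and the difference stayed called when they were thinned.

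In SSM with all libraries, the cisplatin effect differed between nodes for Cox6a2 by 7.247 (adjusted p = 0.0223) and for Spib by 4.664 (adjusted p = 0.0225). The Cox6a2 value depends on TDLN PBS libraries at 0 counts, so its size is no estimate. Both tests include the crossed libraries SSM LN PBS 2 and SSM TDLN cisplatin 3, and 6 of 7 members differed without them.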

How the results depend on the processing

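Counts of called members in the resident dendritic cell node comparison (8 with each treatment) and in mDC against rDC (8) were 8 under DESeq2, DESeq2 size factors and thinning. With no count filter (Spib lost) and with the replicate block (Cox6a2 lost, adjusted p = 0.0503) the rDC node count with PBS was 7, and the other counts were 8. Leaving out a library gave 7 to 8 for rDC with PBS, 8 to 8 with cisplatin and 8 to 8 for mDC against rDC. Of 232 member values for mDC against rDC 232 kept their direction and side of the threshold, of 488 for rDC 461, of 305 for mDC 282, of 468 for MSM 412, of 427 for SSM 347 and of 230 for MSM against SSM 220. Values that DESeq2 gave without an adjusted p were left out.

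In mDC, the 1 call with cisplatin in the LN became 0 under DESeq2, DESeq2 size factors, no count filter, the block and thinning. With no count filter the mDC counts became 1 (cisplatin in the TDLN) and 0 (nodes with PBS), with Tcf4 there at 0.081 instead of -0.27, and DESeq2 size factors gave 2 for the difference between nodes. In rDC the LN cisplatin count became 1 with the block, and Siglech read -0.018 with no count filter, which moved the median of all genes there to 0.41. The rDC difference between nodes had 1 call under DESeq2 and 1 with no filter. With no filter, genes called rose from 2509 to 7427 (LN cisplatin rDC, 59.9% to 37.7% of calls higher), 3781 to 6354 (nodes with PBS rDC, 55.2% to 32.4%), 745 to 1845 (difference rDC, 49.3% to 73.3%), 142 to 235 (TDLN cisplatin rDC; 216 by DESeq2), 3416 to 9422 (TDLN cisplatin mDC), 3639 to 11594 (nodes with PBS mDC) and 1952 to 5357 (difference mDC, 54% to 33.3%), and thinning gave 1628 for LN cisplatin rDC. For LN cisplatin in mDC the share higher moved from 56% to 68.9%. The cause was not tested.

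Without the crossed libraries, with fewer samples, MSM against SSM had 5 calls (Tcf4 -0.46, Spib -1.01), MSM LN cisplatin 8 (Siglech 3.71), MSM TDLN cisplatin 4 (Siglech -1.92, Tcf4 -0.33), MSM nodes with PBS 6 (Tcf4 0.63, Spib 0.74, Pacsin1 0.76), MSM nodes with cisplatin 8 (Siglech -5.68) and the MSM difference 4 (Siglech -5.63, Spib -3.04). For Cd300c, at 0 counts in 1 group of each, the model gave 7.24 (MSM LN cisplatin) and -7.24 (MSM nodes with cisplatin), which are no estimates of size. The SSM counts became 6 (LN cisplatin), 5 (TDLN cisplatin), 5 and 5 (nodes) and 6 (difference). Leaving out 1 MSM library at a time gave Pacsin1 between nodes with PBS from -0.69 to 0.76 (highest without LN PBS 2), and Siglech between nodes with cisplatin from -5.68 (without TDLN cisplatin 1) to 0.62. Genes called rose from 2240 to 7376 up to 10574 to 13672 in these comparisons, and the share higher moved from 30.4% to 41.6% (MSM nodes, PBS), 38.8% to 50.1% (SSM nodes, PBS), 76.3% to 66.1% (MSM difference), 62% to 51% (SSM difference) and 25.5% to 35.5% (MSM against SSM).

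DESeq2 gave 1 call for MSM against SSM, 1 for the MSM difference, and in SSM 1 (LN cisplatin, 3554 against 2240 genes), 4 (TDLN cisplatin), 3 (nodes, PBS) and 5 (difference). With no filter the SSM nodes with cisplatin gave 1 and SSM LN cisplatin 1448 genes. Leaving out 1 library gave 0 to 1, 2 to 2, 1 to 3, 2 to 3 and 1 to 2 calls in mDC (LN cisplatin, TDLN cisplatin, nodes with PBS, nodes with cisplatin, difference). In the same order it gave 1 to 2, 0 to 0, 7 to 8, 8 to 8 and 0 to 0 in rDC, 2 to 5, 0 to 2, 1 to 3, 2 to 6 and 0 to 2 in MSM, and 0 to 3, 0 to 5, 1 to 5, 0 to 3 and 0 to 6 in SSM, and 0 to 3 for MSM against SSM.

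Libraries with the same replicate number did not deviate together (median r -0.019 in mDC, -0.0475 in rDC, 0.0113 in MSM and -0.0109 in SSM), and 4, 0, 6 and 5 of 12 libraries correlated best with their own number, so the numbers were not taken as pairs. With the replicate block the counts were 0 for MSM TDLN cisplatin, 1 for MSM nodes with PBS, 0 for SSM nodes with cisplatin and 0 for the SSM difference. Genes called in SSM with the block were 1206 (LN cisplatin, against 2240), 2476 (TDLN cisplatin, 3883), 2118 (nodes, PBS, 3321), 1851 (nodes, cisplatin, 2945) and 2375 (difference, 3649). Cd300c, Cox6a2 and Dntt in mDC and Dntt in SSM had few counts or none in every library, the deep mDC libraries included, and were below the count filter, so no difference within these populations was tested.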
